A study of Gossypium hirsutum with 3 samples.

Results

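Contig2019, Contig18582 and TMIRS_014_F10.F are cotton (Gossypium hirsutum) transcripts described as receptor kinases. Their measured RNA level differed between fiber initials and elongating fiber. They are 3 of the 11143 genes on a custom 2-colour oligonucleotide array, measured by 9 of its 40372 probes and 11 of its 42034 gene spots. All 11 spots were used, with no filter. The genes were chosen for their ratio of 10 dpa (days post anthesis) over 1 dpa fiber on these same arrays, so their ratios are given as a description and were not tested. Each of the 3 arrays carried labelled cDNA of both stages: 1 dpa fiber, when the initials bulge from the ovule, and 10 dpa fiber, during rapid elongation. The plants were field grown, and neither a treatment nor a mutation is given for either stage. Flowers came from the cultivars DES119 and ST4793R, and which of them supplied the hybridized RNA is not given in the sources used here. Fiber of 1 dpa was broken off frozen ovules of pooled bolls by vortexing with glass beads, and the intact ovules were then filtered out, whereas 10 dpa fiber was dissected from the ovule. Polyribosomal RNA, which the labels also name total RNA, was used for both stages.

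The arrays are named replicates 1, 2 and 3, with no order among them, and replicate 2 has the dyes reversed. The methods name biological replications from different days, but the codes that the array files carry for their RNA number 2 per stage, with replicates 1 and 2 sharing the 1 dpa code and replicates 1 and 3 the 10 dpa code. If a code marks an RNA preparation, the spread between arrays is in part technical. The fiber genes GhRDL, MYB2, MYB109 and Ghtub were brighter than the negative controls in both stages on all 3 arrays. The same held for every gene of both kinase lists below, and a filter on dim probes kept 11001 of the 11143 genes. Passing the negative controls is therefore no check of fiber identity. The median intensity over all gene spots lay between 222 and 362 for 1 dpa fiber and between 234 and 357 for 10 dpa fiber.

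Receptor kinases of plants span the plasma membrane. An outer domain binds a ligand such as a hormone, a peptide or a fragment of a cell wall, and a kinase domain inside the cell passes the signal on by phosphorylating other proteins. Families are named for the outer domain: lectin receptor kinases carry a domain like that of the sugar-binding legume lectins, and the leucine-rich repeat family includes the brassinosteroid receptor. Brassinosteroids act in both the initiation and the elongation of cotton fiber. Contig2019 is described as a receptor kinase, Contig18582 as a lectin receptor kinase and TMIRS_014_F10.F as a receptor-like protein kinase, each by its best match to a rice protein. No ligand is given for any of the 3.

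Contig2019, the receptor kinase, was 2.21-fold higher in 10 dpa fiber. Intensities are mean pixel values of a spot in scanner units, before background subtraction, listed for replicates 1, 2 and 3 in turn. Probe 1 of Contig2019 gave 312, 327 and 238 in 1 dpa fiber, against 769, 568 and 597 in 10 dpa fiber. Probe 2 gave 525, 263 and 263 against 929, 596 and 594. Every 10 dpa intensity of these probes lay above every 1 dpa intensity of the same probe, although on replicate 1 probe 2 came close to the 10 dpa values of the other arrays. Probe 3 gave 698, 418 and 300 in 1 dpa fiber, against 1930, 856 and 798 in 10 dpa fiber. Probe 4, the brightest, gave 2117, 1386 and 1212 against 4848, 2486 and 2956. In all 12 measurements the 10 dpa channel was the brighter, whichever dye it carried. The measurement nearest the negative controls was probe 1 of replicate 1 in 1 dpa fiber, at 1.67 times the 95th percentile of 314 such spots.

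After background correction and loess normalization, the log2 ratio (10 dpa relative to 1 dpa) of Contig2019 was 0.94, 1.34 and 1.14 on replicates 1, 2 and 3, with a mean of 1.14 ± 0.20 (SD, n = 3 arrays). The 4 probes had means between 0.95 (probe 4) and 1.28 (probe 3). They stood furthest apart on replicate 1, where probes 1 and 3 gave 1.40 and 1.17 but probes 2 and 4 gave 0.66 and 0.55. On replicate 2, with the dyes reversed, probe 1 was the lowest at 1.13, probes 3 and 4 gave 1.41 and 1.33, and probe 2 was the highest. The order of the probes thus differed between arrays. The SD between the probe means of Contig2019 was 0.16, beside a median of 0.17 over the 8604 genes that have 4 probes. Probes of a gene share a target and are not replicates.

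Contig18582, the lectin receptor kinase, was 4.15-fold higher in 10 dpa fiber, the largest ratio among the 3 genes. It is measured by 1 probe printed in 3 spots, so the spots repeat a single sequence. On replicate 1 the spots gave 1915, 1344 and 1449 in 1 dpa fiber, against 10288, 7320 and 7514 in 10 dpa fiber. On replicate 2 they gave 1418, 1418 and 1470 against 4566, 4575 and 4776. On replicate 3 they gave 637, 638 and 675 against 3628, 3535 and 3652. The lowest 10 dpa intensity on any array lay above the highest 1 dpa intensity on any array. In 1 dpa fiber the probe was between 6.91 and 19.7 times that percentile, and in 10 dpa fiber at least 48.3 times. The coefficient of variation between the spots was 19.3% in 1 dpa and 19.8% in 10 dpa fiber on replicate 1, and between 1.71% and 3.33% on the other arrays. On replicate 1 the same spot was the brightest in both stages, and the ratio varied less than the intensities.

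**Figure D1:**
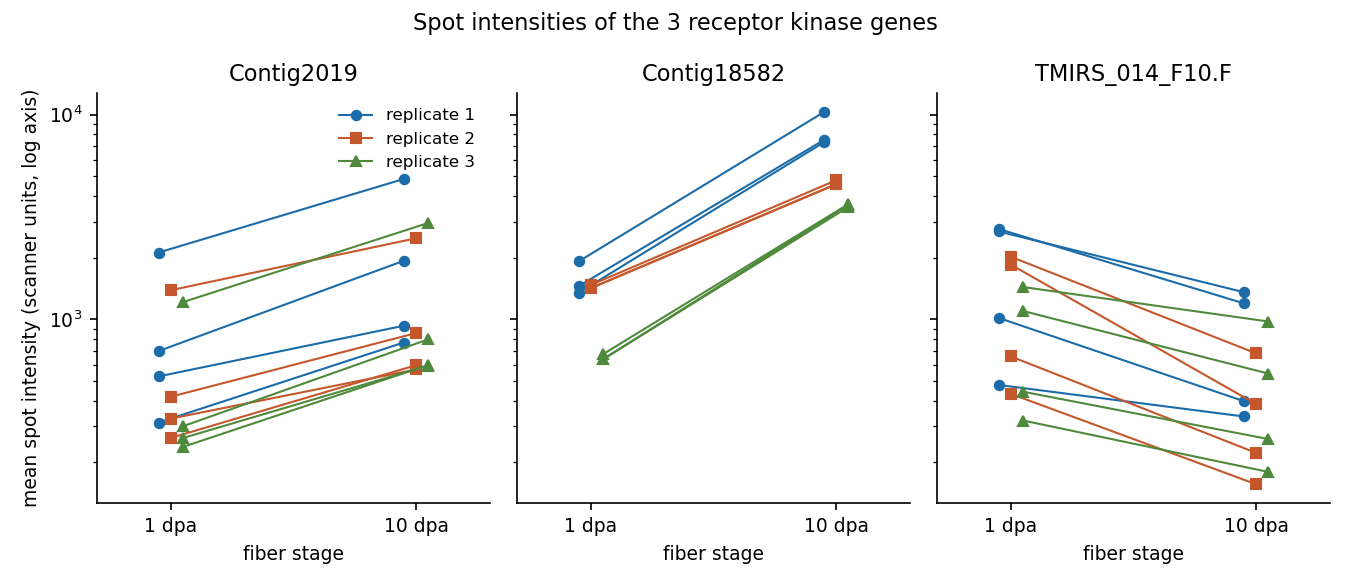
Mean spot intensity (scanner units, log axis) in 1 dpa and 10 dpa fiber, with a line joining both stages of a spot on an array and colors and symbols for the arrays. All 12 lines of Contig2019 and all 9 of Contig18582 go up, and all 12 of TMIRS_014_F10.F go down.

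The log2 ratio of Contig18582 was 1.76, 2.21 and 2.18 on replicates 1, 2 and 3, with a mean of 2.05 ± 0.25 (SD, n = 3 arrays). Between the spots of an array its SD was 0.07, 0.01 and 0.04 on the same arrays. Over the 831 probes with 3 spots, the median of this SD was 0.14, 0.04 and 0.05. The spots of Contig18582 thus differed less from each other than the arrays did. Of all genes, 0.547% had a higher mean log2 ratio than Contig18582, and 2.81% a higher one than Contig2019.

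TMIRS_014_F10.F, the receptor-like protein kinase, went the other way and was 2.38-fold lower in 10 dpa fiber. Its probe 4 gave 2761, 2019 and 1436 in 1 dpa fiber, against 1195, 681 and 974 in 10 dpa fiber. Probe 3 gave 2686, 1848 and 1097 against 1355, 384 and 542. On both probes the 10 dpa channel of replicate 2 was the dimmest. Probe 2 gave 1015, 432 and 320 in 1 dpa fiber, against 397, 156 and 179 in 10 dpa fiber. Probe 1 gave 477, 658 and 442 against 335, 222 and 259. In all 12 measurements the 10 dpa channel was the dimmer of its spot. On probe 2 the 10 dpa intensity of replicate 1 exceeded the 1 dpa intensity of replicate 3, and the same held for probe 3, so these stages overlap between arrays while differing within each. The transcript was still measured in 10 dpa fiber, where its dimmest spot was 1.65 times that percentile.

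The log2 ratio of TMIRS_014_F10.F was -1.36, -1.42 and -0.98 on replicates 1, 2 and 3, with a mean of -1.25 ± 0.24 (SD, n = 3 arrays). The probe means ran from -0.93 for probe 1 to -1.55 for probe 3. The SD between them was 0.26, and 72.8% of the genes with 4 probes had a smaller one, so its probes were less alike than those of Contig2019. On replicate 1 the probes spanned from -0.56 (probe 1) to -1.73 (probe 4), on replicate 2 from -1.14 (probe 4) to -1.89 (probe 3), and on replicate 3 from -0.84 (probe 4) to -1.25 (probe 3). Probe 4 was thus the furthest from 0 on replicate 1 and the nearest to it on the other arrays. Of all genes, 0.924% had a lower mean log2 ratio.

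**Figure D2:**
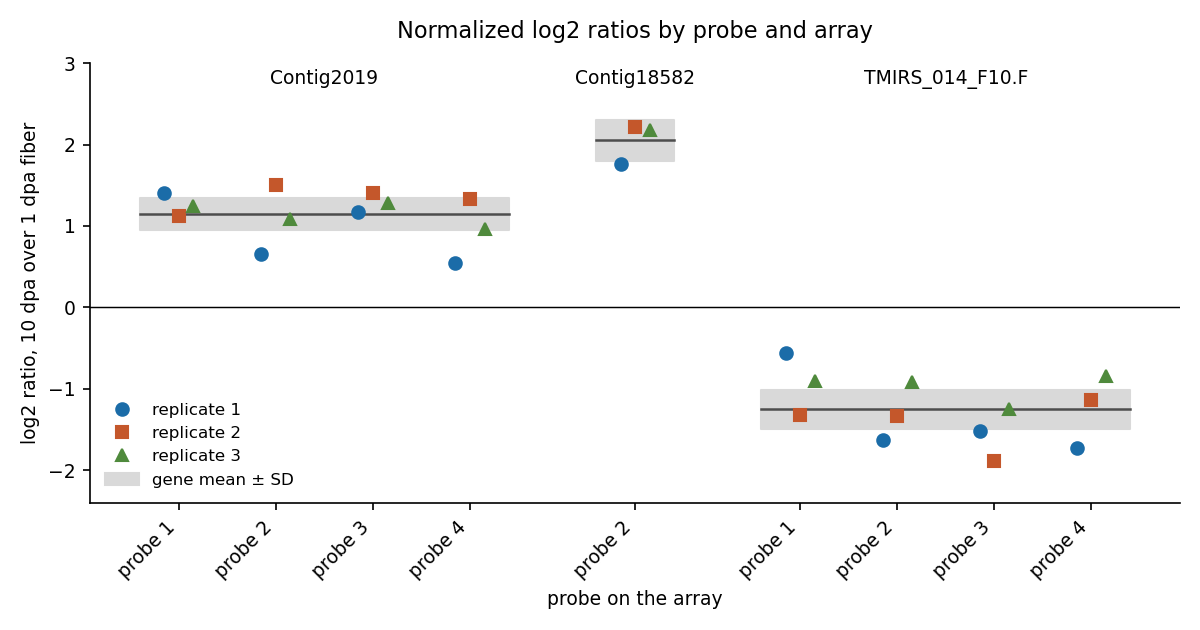
Normalized log2 ratio of 10 dpa over 1 dpa fiber for each of the 9 probes, with a symbol for each array. Line and grey band give the gene mean and its SD over 3 arrays, at 1.14 ± 0.20, 2.05 ± 0.25 and -1.25 ± 0.24, and no probe crosses 0 on any array.

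Each of the 3 genes kept its direction on all 3 arrays, as many genes did: 22.4% of all genes were higher and 20.1% lower in 10 dpa fiber on every array. Contig18582 was at least 2-fold higher on every array, beside 2.19% of all genes. Contig2019 was 1.93-, 2.53- and 2.21-fold higher on replicates 1, 2 and 3, under 2-fold on replicate 1. TMIRS_014_F10.F was 2.57-, 2.68- and 1.97-fold lower, under 2-fold on replicate 3, and 0.853% of all genes were at least 2-fold lower on every array. These ratios chose the genes, so nothing is read from the shares. The log2 ratio of Contig2019 minus that of Contig18582 was -0.82, -0.87 and -1.04, so the lectin receptor kinase had the larger ratio on every array.

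For the level in each stage, the channels were also scaled between arrays. The normalized log2 level of Contig2019 was 9.13, 8.67 and 8.98 in 1 dpa fiber and 10.08, 10.01 and 10.12 in 10 dpa fiber. The arrays spread more in 1 dpa fiber (SD 0.24) than in 10 dpa fiber (SD 0.06). The level of Contig18582 was 10.39, 10.31 and 9.88 in 1 dpa fiber and 12.15, 12.52 and 12.06 in 10 dpa fiber. That of TMIRS_014_F10.F was 10.20, 9.78 and 9.82 in 1 dpa fiber and 8.84, 8.36 and 8.84 in 10 dpa fiber. On this scale the stages did not overlap for any of the 3 genes. In 10 dpa fiber replicate 2 stood apart from replicates 1 and 3 for Contig18582 and TMIRS_014_F10.F. Replicate 2 differs from both in the dye and in the code of its 10 dpa RNA, and these cannot be told apart. Both stages are bulk RNA, so that fewer cells with a transcript and less of it per cell cannot be told apart either. As the methods name polyribosomal RNA, the amount of a transcript and its share on ribosomes cannot be told apart. The way the fiber was isolated differed between the stages on every array, and cannot be told apart from the stage.

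Background correction and normalization, changed together, altered the size of the ratio on single arrays but not its direction. With plain background subtraction and no normalization, Contig18582 was 5.50-, 3.30- and 5.88-fold higher in 10 dpa fiber on replicates 1, 2 and 3. Contig2019 was 2.45-, 2.05- and 2.72-fold higher, and TMIRS_014_F10.F was 2.08-, 3.79- and 1.84-fold lower. Replicate 2, with the dyes reversed, thus had the smallest difference for both genes that were higher and the largest for the gene that was lower. Normexp and loess together moved the log2 ratio of Contig18582 by -0.70 on replicate 1 and by 0.49 on replicate 2. The SD over arrays was 0.46 with plain subtraction alone and 0.25 with normexp and loess for Contig18582, and 0.56 and 0.24 for TMIRS_014_F10.F. For Contig2019 it was 0.20 in both cases. The share of each step in this was not tested.

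**Figure D3:**
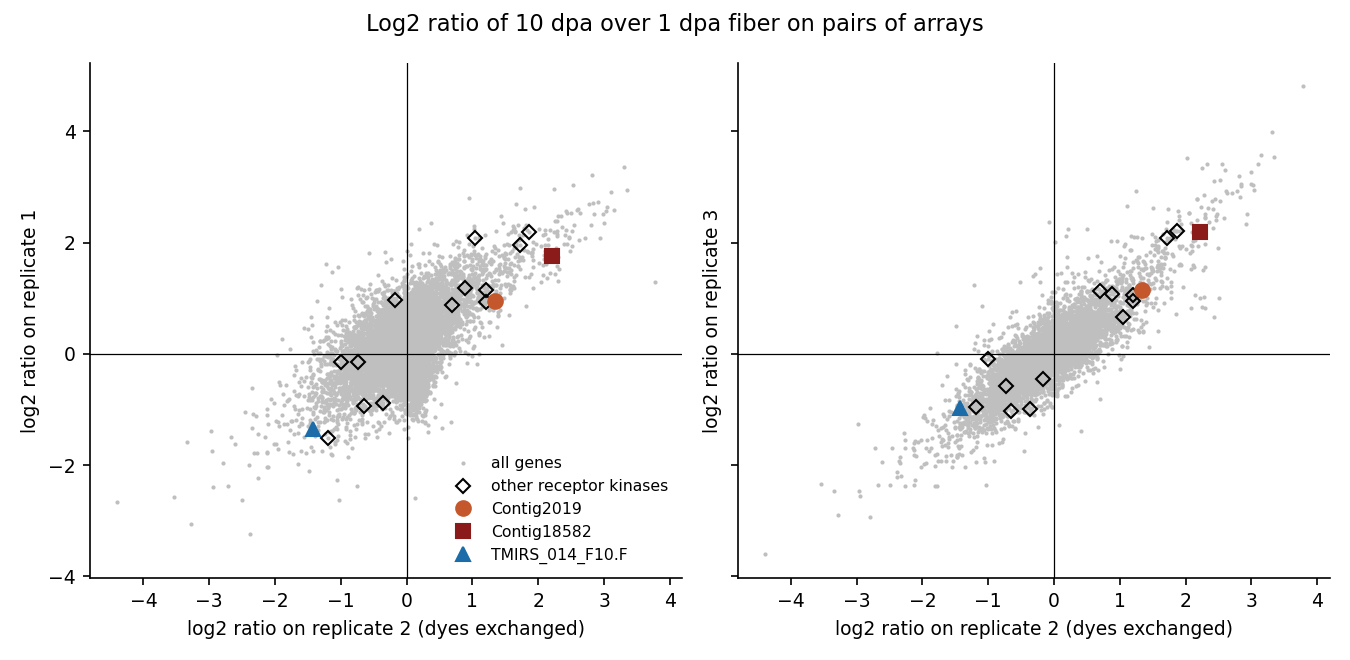
Log2 ratio of 10 dpa over 1 dpa fiber on replicate 1 (left) and replicate 3 (right) against replicate 2, whose dyes were reversed, for all 11143 genes (grey), 13 other receptor kinases (open diamonds) and the 3 genes. Contig2019 and Contig18582 lie at the upper right of both panels and TMIRS_014_F10.F at the lower left.

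Other receptor kinases went in both directions between the stages. The list holds 13 further genes, placed in it by their descriptions in the study's additional file. Not all of these name a receptor. Contig3291, Contig3000 and TSnorm_01-01-10R_B01 are described by leucine-rich repeats and a protein kinase, and TMIRS_154_A07.F as a brassinosteroid-insensitive protein. In 10 dpa against 1 dpa fiber 7 of the 13 rose, 3 fell and 3 had an adjusted p above 0.05 in limma. In that fit 8.03% of all genes were higher and 5.61% lower. Their median log2 ratio was 0.90, beside -0.04 over all genes. That file lists genes which the study selected for the fiber stages on these arrays, or for 1 dpa fiber against ovules on others. The study's test used all of these arrays together. Neither the counts, the median nor the adjusted p of a list gene is therefore independent evidence of a direction. The 7 genes selected for the fiber stages held 6 rises and 1 fall. The other 6, selected for a difference from ovules, held 1 rise and 2 falls, with a median of -0.45.

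The lectin type was found on both sides. Contig3114, described as a lectin-like receptor kinase by a Medicago match, had log2 ratios of -1.51, -1.19 and -0.96 on replicates 1, 2 and 3. It fell 2.33-fold in 10 dpa fiber (mean log2 ratio -1.22 ± 0.28, adjusted p = 0.00481 in limma over 3 arrays). Contig3114 had itself been selected by the study for the fiber stages, so its fall is not independent evidence. The lectin receptor kinase Contig18582 was positive on each array where Contig3114 was negative.

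Among the list genes with leucine-rich repeats, Contig3291 had log2 ratios of 2.19, 1.86 and 2.21. It rose 4.25-fold (adjusted p = 0.000846 in limma over 3 arrays), close in size to Contig18582. Contig3330, a weak match to a sweet potato gene of this type, rose 3.79-fold. TSnorm_01-01-10R_B01 rose 1.87-fold. TMIRS_154_A07.F, a barley match to the brassinosteroid receptor BRI1, had log2 ratios of 1.19, 0.88 and 1.07 and rose 2.07-fold. Contig3000, also with leucine-rich repeats, was positive on replicate 1 (0.96) and negative on replicates 2 and 3 (-0.17 and -0.44), with a mean of 0.11 ± 0.75 (adjusted p = 0.865 in limma). Contig14256 is a match to the somatic embryogenesis receptor-like kinases, which in Arabidopsis act as co-receptors of leucine-rich repeat receptors. Its log2 ratio was -0.48 ± 0.31 (adjusted p = 0.104 in limma over 3 arrays).

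The PERK1-like Contig10372, of a family with a proline-rich outer domain, rose 2.40-fold but varied between arrays, with log2 ratios of 2.09, 1.04 and 0.66. TSMB_1-05-01_H12, a match to the rice receptor-type kinase LRK1, rose 2.20-fold and varied least in the list, at 1.15, 1.21 and 1.05. Contig1407, a weak match to a receptor-like kinase, rose 2.04-fold. Beside Contig3114, Contig14083 fell (log2 ratio -0.87 ± 0.20), as did HYP7_01-01-22R_F05 (-0.75 ± 0.33). Contig5537 is a match to LysM receptor-like kinases, a family that binds chitin and related sugars. Its log2 ratio was -0.41 ± 0.51 (adjusted p = 0.298 in limma over 3 arrays).

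The call for HYP7_01-01-22R_F05 ended without replicate 1 (-0.68, adjusted p = 0.0654 in limma), without replicate 3 (-0.62, adjusted p = 0.127), with the median of probes and with median centring. Median centring also ended that of Contig10372, and a fit without the array as block ended those of Contig10372 and TSnorm_01-01-10R_B01. When the arrays were scaled to one another, or when an ordinary F-test was run gene by gene, none of the 13 passed the adjusted p, while 11 and 8 of them had an unadjusted p under 0.05.

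**Figure D4:**
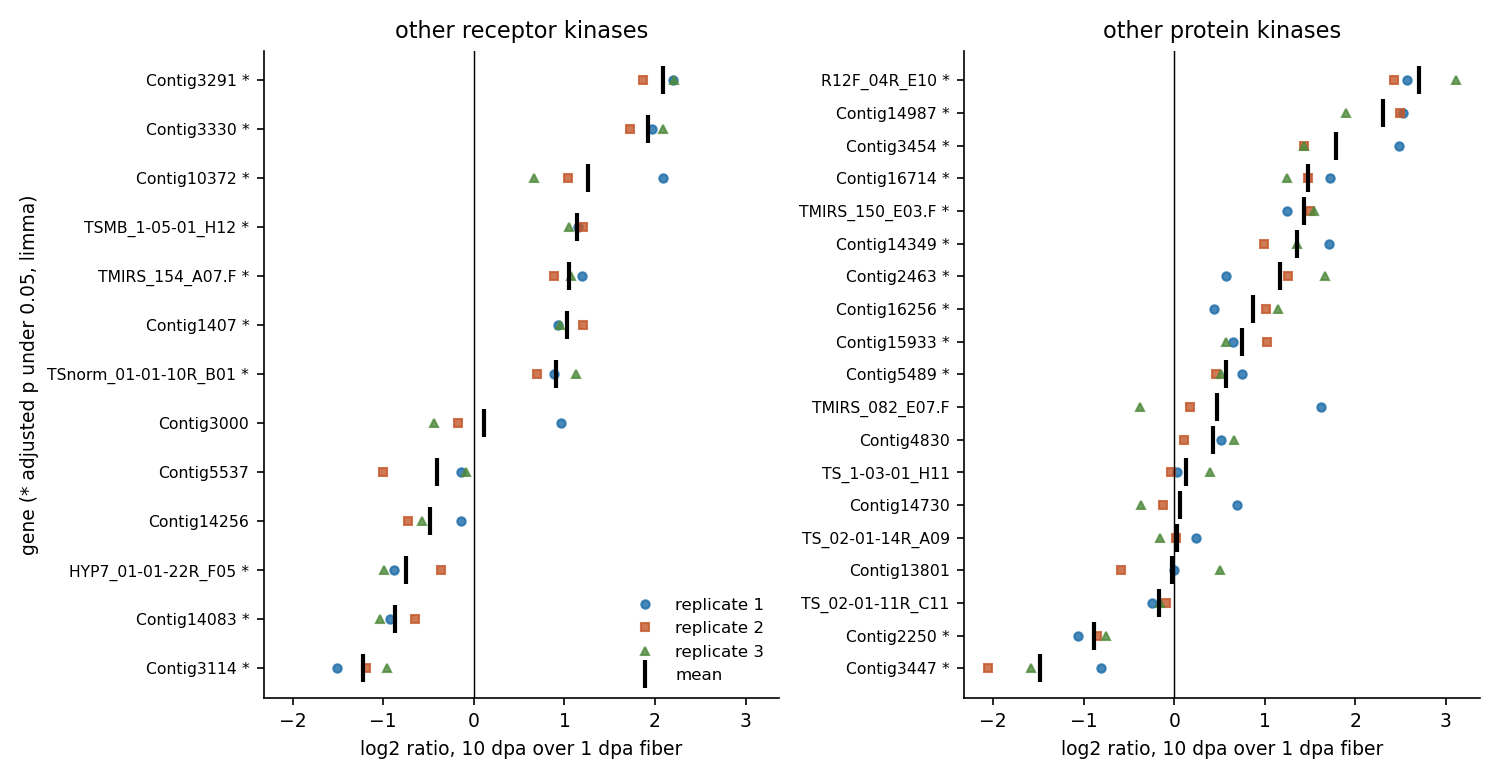
Log2 ratio of 10 dpa over 1 dpa fiber on each array (symbols) and its mean (bars) for 13 other receptor kinases and 19 other protein kinases, with stars at genes past an adjusted p of 0.05 in limma. The receptor kinases run from -1.22 (Contig3114) to 2.09 (Contig3291) and the protein kinases from -1.49 (Contig3447) to 2.70 (R12F_04R_E10).

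A further list holds 19 genes described as protein kinases without mention of a receptor or of leucine-rich repeats. Of these 19 genes, 10 rose, 2 fell and 7 had an adjusted p above 0.05 in the same fit, where 8.03% of all genes were higher and 5.61% lower. Their median log2 ratio was 0.57, beside -0.04 over all genes. They too were selected by the study. The 8 selected for the fiber stages, on these arrays, held 7 rises and 1 fall. The 11 selected for a difference of 1 dpa fiber from ovules, hybridized on other arrays, held 3 rises and 1 fall. Contig14987, a weak match to the CBL-interacting kinases of calcium signaling, rose 4.95-fold, and Contig3454 rose 3.44-fold. R12F_04R_E10 rose 6.52-fold but is a weak match to a Dictyostelium kinase. Contig16714 (2.79-fold), TMIRS_150_E03.F (2.69-fold, a weak match), the Nek4-like Contig14349 (2.55-fold) and Contig2463 (2.24-fold) also rose. Contig16256, like CTR1, a kinase that represses ethylene responses in Arabidopsis, rose 1.83-fold, Contig15933 rose 1.68-fold and Contig5489 rose 1.49-fold. Contig3447 fell 2.80-fold, and Contig2250, a weak match to the SCY1 family, fell 1.85-fold. The calls ended for Contig15933 without replicate 2 (log2 ratio 0.61), for Contig5489 without replicate 2 or 3 (0.63 and 0.60) and for Contig16256 without replicate 3 (0.73). A fit without the array as block ended the calls of the same 3 genes, median centring those of Contig5489 and Contig2250, and a dye term that of Contig5489. With the arrays scaled to one another, or with the ordinary F-test, all 12 calls ended, while 12 and 9 of the 19 genes had an unadjusted p under 0.05.

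Genes with ratios like those of the 3 receptor kinases were sought among 1019 genes that the additional file describes, by the Euclidean distance over the log2 ratios of the 3 arrays. Nearest to Contig2019 was a gene described as a homeobox protein by an Arabidopsis match, at a distance of 0.10, with log2 ratios of 0.92, 1.28 and 1.06. TMIRS_186_B06.F, a weak match to chorismate synthase, and the metacaspase Contig14433 followed at 0.17 each. Nearest to Contig18582 were Contig15741, a hypothetical protein, at 0.23, Contig5651, a weak match to a Giardia protein, at 0.24, and Contig9487, a match to the D2 protein of photosystem II, at 0.26. Nearest to TMIRS_014_F10.F were TMIRS_103_F07.F, a weak match to a viral protein, at 0.07, the FKBP-type immunophilin Contig15156 at 0.08 and Contig15400, a weak match to a mouse protein, at 0.16. The likeness rests on 3 arrays.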

How the data were processed

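For each array the authors deposited Agilent scanner output, in which a spot has a mean intensity and a local background intensity per dye, neither subtracted nor normalized. The deposited flag for green spots well above background was 1 for all spots of the 3 genes. The deposited value table holds log2 ratios of red over green without centring, their medians being -0.210, 0.172 and -0.0277, and with the reversed array not turned. Its sorted values equal those of the background-subtracted spots within 0.001, and it was not used further. A service company hybridized and scanned the arrays. Ovule arrays were not analysed here.

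Background was corrected by normexp (offset 50) and dyes by loess within arrays, fitted without the 2256 control spots. Values were averaged over the spots of each probe, then over the probes of each gene. Gene ratios, in log2 and with 10 dpa fiber in the numerator, were fitted against 0 over all 11143 genes with limma's lmFit and eBayes, with Benjamini-Hochberg adjustment at 0.05. Both stages share each array, which serves as the block. Levels were scaled between arrays with Aquantile. The number of arrays limits the precision. The fit treats the 3 arrays as independent. If arrays with the same RNA code share a preparation, its p-values may be too small. The software was R 4.3.3 with limma 3.58.1 and jsonlite 2.0.0. The fit was also run on simulated data with independent arrays, which do not represent arrays that share RNA. The methods' own test, an F-test over the fiber and ovule arrays together, was not run; an ordinary F-test per gene on these 3 arrays was an alternative. The other alternatives changed the background correction, normalization, scaling, probe summary, dim-probe filter, dye term, probe set, block and replicates.

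The 3 genes and both lists were chosen with earlier results of these data known. Named are the 3 genes, the list genes past the adjusted p, the lectin-like, PERK1-like, LysM, SERK and BRI1 genes, and the 3 described genes nearest to each of the 3. Contig3000 was named after its values were seen. Descriptions are those of the study's additional file, called weak if their expect value exceeded 1e-05, and its values were not used. Long clone names are given up to the plate position.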

Additional observations from a re-analysis of the deposited data

How the results depend on the processing

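The log2 ratios of the 3 genes kept their direction under every alternative run and moved by less than their SD over arrays. Contig2019 ranged from 1.04 to 1.27 and TMIRS_014_F10.F from -1.39 to -1.15 over 16 alternatives each, and Contig18582 from 1.97 to 2.28 over 12. Some of these could not move the values. The dim-probe filter and the probes without RC_ kept every probe of the 3 genes, and Contig18582 has a single probe for the median of probes. Leaving out each replicate gave 1.04 to 1.24, -1.39 to -1.17 and 1.97 to 2.20. It could neither reverse a direction shared by all 3 arrays nor move a mean beyond the SD over arrays. Leaving out a probe could not reverse a direction either, as no probe crossed 0. Leaving out each probe, and plain subtraction with no normalization, which moved the median of all genes to -0.20, were added after seeing the data. Over all genes, 895 were higher and 625 lower, so that 58.9% of calls were higher. Median centring gave 512 and 191 (72.8% higher), and no array block gave 547 and 401. Probes without the RC_ prefix, which cover 6266 genes, gave 587 higher. Leaving out each replicate gave 803 to 979 higher and 447 to 1212 lower, the latter 1212 (44.7% higher) without replicate 1. With arrays scaled to one another limma gave 0 calls, and so did the ordinary F-test, over all genes and in both lists, with 2697 and 1811 genes at an unadjusted p under 0.05. The 7 higher and 3 lower receptor kinases became 5 to 7 and 2 to 3 under all other alternatives. Equal counts need not hold the same genes. Without replicate 1, 3 were lower although HYP7_01-01-22R_F05 lost its call, so a gene not called in the main fit had entered. Probes without RC_ measure 9 of the 13, and not Contig3291, Contig3330 or Contig14083. No called receptor kinase that was measured lost its call there. The 10 higher and 2 lower protein kinases became 9 and 1 with median centring. With probes without RC_, which measure 14 of the 19, they became 6 and 1. There Contig15933, Contig16256, Contig16714, Contig2463 and Contig3447 were not measured, and no called protein kinase that was measured lost its call. Without replicate 3, 9 protein kinases were higher although Contig5489 and Contig16256 lost their calls, so here too a gene not called in the main fit had entered. The cause of the other shifts was not tested. The fit is itself paired, since both stages share each array; the counts without the array block are those of the unpaired fit.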

Other observations

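All probes of Contig2019 and Contig18582 carry the prefix a1_ in the names on the array, and those of TMIRS_014_F10.F carry none. The meaning of the prefixes is not given in the sources used here. Of 3994 genes with a1_, 9.29% were higher and 6.23% lower in 10 dpa fiber by an adjusted p of 0.05 in limma. Of 2272 without a prefix the shares were 8.45% and 6.78%, and of 4877 with RC_ they were 6.81% and 4.55%.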
